A study of Mus musculus with 2 samples.

Results

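The 10 genes described here are the bone morphogenetic protein (BMP) ligand genes Bmp2, Bmp4 and Bmp6, the receptor genes Bmpr1a and Bmpr2, the genes Bmper, Grem1 and Nog, whose products bind BMPs outside the cell, Bambi, which encodes a decoy receptor, and Tmem100, a gene switched on by BMP signalling in endothelium. They were taken by symbol from the deposited table. A probe set, a group of short probes that reports 1 signal, was kept where it was assigned to 1 gene only. All 10 genes had such a probe set, 18 in all, out of 18194 genes and 34958 probe sets. The series compared a pair of immortalised mouse cell lines, both labelled endothelial, with 1 Affymetrix array each. SVEC4-10 derives from an axillary lymph node and was grown in DMEM with 10% fetal calf serum, and MS-1 derives from the pancreatic microvasculature and was grown in DMEM with 5% serum. Both were grown for 3 to 5 days to confluence, without treatment, and were used up to passage 5, so line and serum cannot be told apart. Each line is a single immortalised culture, and none of its values has a replicate.

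BMPs are secreted dimers that bring together type I and type II receptor kinases at the cell surface. The type II receptor activates the type I receptor, which phosphorylates SMAD1, SMAD5 and SMAD9, and these enter the nucleus with SMAD4 and switch on genes such as the Id genes. Secreted antagonists hold the ligand away from the receptors. In blood vessels the type I receptor ALK1 (Acvrl1) and its co-receptor endoglin (Eng) answer mainly to circulating BMP9 and BMP10, while Bmpr1a, also called ALK3, binds BMP2 and BMP4.

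Each log2 ratio has SVEC4-10 on top and MS-1 below. A signal was counted as above background where it exceeded the 95th percentile of 127 probe sets of odorant, pheromone, taste receptor and hair keratin-associated genes, which was 17.6 on the array of SVEC4-10 and 16.5 on that of MS-1. A signal below that level was set to it before a ratio was taken, and the fold is then written as "at least". Of 12553 genes above background on at least 1 array, 15.3% were at least 2-fold higher in SVEC4-10 and 12.1% in MS-1, and 5.77% and 4.29% were at least 4-fold higher. With scaling to the poly-A transcripts spiked into the RNA instead, the share of genes past 2-fold that were higher in SVEC4-10 was 24.0%, against 55.8% as deposited, and the median log2 ratio of all genes was -0.52, against 0.017. The error of a log2 ratio, taken from pairs of probe sets of 1 gene, was 0.48 (4809 genes). Split by brightness into groups of 1603 genes, it was 0.56 for the dimmest, 0.47 for the middle and 0.40 for the brightest group, and it holds no variation between cultures. The labelled cell type was checked against 12 endothelial markers. By the probe set that stands for each gene, 1 of the 11 measured markers was above background in SVEC4-10 and all 11 in MS-1, and their summed signals were 104 in SVEC4-10 and 28329 in MS-1. The marker in SVEC4-10 was Kdr, which encodes VEGF receptor 2, and Egfl7 also passed by 3 of its 4 probe sets, with 26.1, 26.7 and 38.7. Pecam1 and Cdh5 had signals of 1.27 and 1.13 in SVEC4-10. Of 11 mesenchymal markers, 10 were measured and all 10 were at least 2-fold higher in SVEC4-10, with summed signals of 34633 in SVEC4-10 and 132 in MS-1. All 5 mesothelial markers were higher in SVEC4-10 too, with sums of 14952 in SVEC4-10 and 56.2 in MS-1. The signals of SVEC4-10 thus went against its labelled cell type. With 1 array per line the identity of that culture could not be checked, so each value given for SVEC4-10 is that of the array so labelled. The part of these marker differences in the values below was not tested, and in bulk RNA fewer cells of a type and less RNA per cell cannot be told apart.

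The arrays differed most in a receptor, in a pair of extracellular BMP-binding proteins and in a ligand. Bmpr1a was at least 56.5-fold higher in SVEC4-10, Bmper 13.8-fold and Grem1 at least 7.52-fold, whereas Bmp4 was 5.90-fold and Bambi 2.51-fold higher in MS-1. Of the 7 genes above background on at least 1 array, 4 were at least 2-fold higher in SVEC4-10 (against 15.3% of all genes), 2 in MS-1 (against 12.1%) and 1 in neither. At 4-fold the counts were 3 (against 5.77%) and 1 (against 4.29%). Bmpr1a, Grem1 and Bmp2 were above background in SVEC4-10 only, so they were counted through that array. The members were also chosen with earlier results of these data known. The counts therefore describe these genes and are not a test. The median log2 ratio of the 7 genes was 1.17, against 0.017 for all genes. It is the value of Bmpr2 and lay between 0.20 and 1.82 under other processing. Bmp6, Nog and Tmem100 were not above background on either array. Over all genes, 12553 of 18194 were above background on at least 1 array, against 7 of the 10 here.

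**Figure D1:**
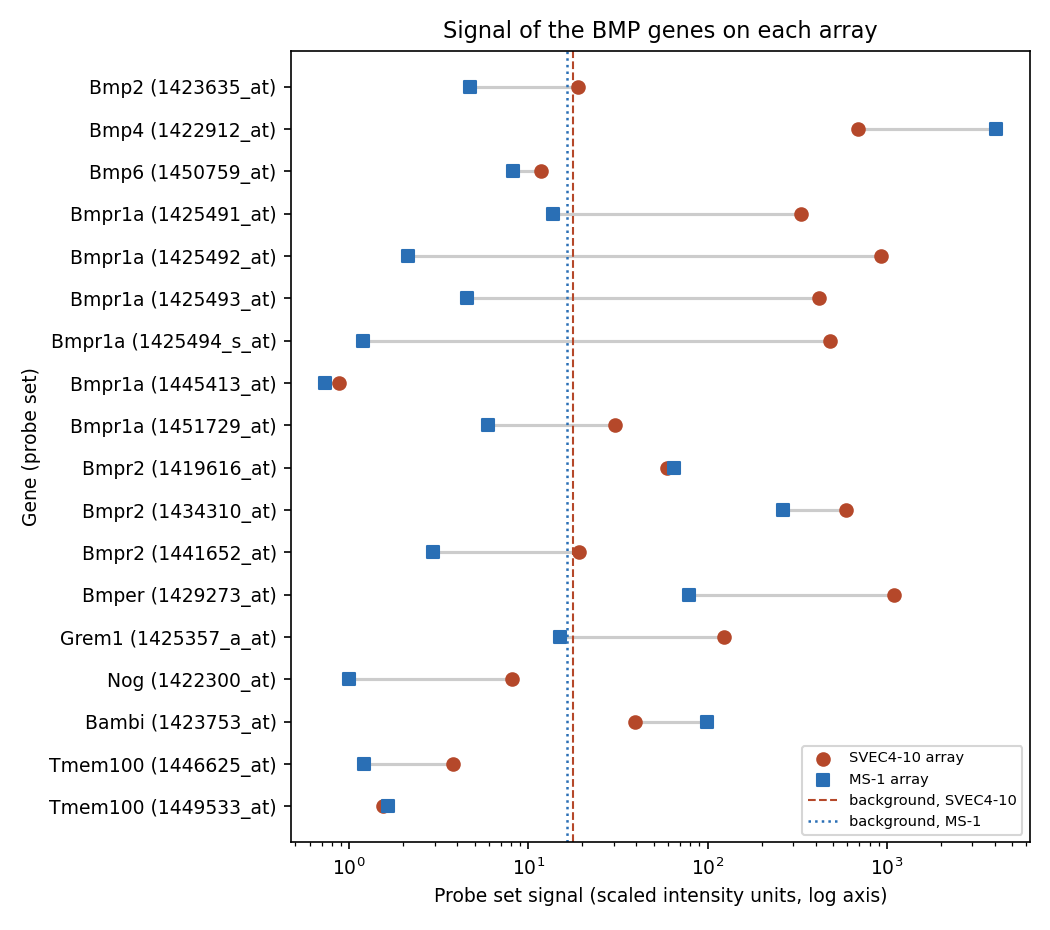
Signal of each of the 18 probe sets of the BMP genes (log axis) in SVEC4-10 (circles) and in MS-1 (squares), with the background of each array as a vertical line. Bmper, Grem1 and Bmpr1a, except its probe set 1445413_at, lie to the right in SVEC4-10. Bmp4 (690.0 and 4073) and Bambi (39.5 and 99.0) do so in MS-1. Bmp6, Nog, Tmem100 and 1445413_at (0.876 and 0.730) lie left of both lines.

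The promoters of the 4 genes past 4-fold are shown, to compare genes higher in SVEC4-10 (Bmpr1a, Bmper, Grem1) with the one higher in MS-1 (Bmp4). The RefSeq promoter table (build GRCm38.p6) held 6 of the 10 genes. The bases just upstream of the annotated start are given, 250 per gene, read 5′ to 3′ on the strand of the gene. Capitals mark GGCGCC, which is its own reverse complement, and GGAGCC on either strand (GGCTCC where it lies on the opposite strand), 2 GC-rich motifs that BMP-activated SMADs bind. Bmpr1a lies on the minus strand (chr14:34502547-34502796), Bmper on the plus strand (chr9:23222826-23223075), Grem1 on the minus strand (chr2:113758649-113758898) and Bmp4 on the minus strand (chr14:46390670-46390919).
Bmpr1a: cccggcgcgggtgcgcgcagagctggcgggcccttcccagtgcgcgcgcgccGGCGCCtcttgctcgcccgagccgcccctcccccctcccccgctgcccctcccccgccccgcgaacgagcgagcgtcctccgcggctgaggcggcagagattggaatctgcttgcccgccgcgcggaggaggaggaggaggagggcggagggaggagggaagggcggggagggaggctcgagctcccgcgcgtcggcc
Bmper: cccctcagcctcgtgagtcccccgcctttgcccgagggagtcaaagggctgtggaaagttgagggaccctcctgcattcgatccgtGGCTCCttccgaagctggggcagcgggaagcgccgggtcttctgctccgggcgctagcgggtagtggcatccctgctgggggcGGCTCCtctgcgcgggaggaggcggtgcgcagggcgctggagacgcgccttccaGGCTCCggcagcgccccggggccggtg
Grem1: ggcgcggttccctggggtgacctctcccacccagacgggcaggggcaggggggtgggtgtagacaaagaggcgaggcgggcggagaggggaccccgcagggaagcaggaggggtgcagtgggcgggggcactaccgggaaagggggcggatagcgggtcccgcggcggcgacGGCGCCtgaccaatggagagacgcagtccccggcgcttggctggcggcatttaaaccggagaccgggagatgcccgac
Bmp4: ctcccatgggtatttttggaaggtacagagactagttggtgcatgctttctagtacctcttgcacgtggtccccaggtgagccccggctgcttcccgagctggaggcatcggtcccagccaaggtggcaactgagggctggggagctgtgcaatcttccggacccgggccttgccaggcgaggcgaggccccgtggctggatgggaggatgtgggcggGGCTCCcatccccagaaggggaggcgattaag

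Bmpr1a and Grem1 each held 1 GGCGCC, starting 198 and 78 bases before the start, and so did Bmpr2, 105 bases before it. Of 32851 promoters of the same length, 9.59% held GGCGCC. Bmper held 3 copies of GGAGCC, all on the opposite strand, and Bmp4 held 1, against 26.0% of all promoters with at least 1 copy. Bmp6, which was not above background, held neither motif. These promoters were rich in G and C, at 78.8% in Bmpr1a, 71.6% in Bmper, 72.0% in Grem1 and 63.2% in Bmp4, against a median of 52.4% over all promoters. The shares above cover all promoters. None was computed for promoters as rich in G and C, or for 3 copies. A match describes the letters in this window and no binding was measured.

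Among the ligands, Bmp4, which acts in vessel and mesoderm development, had a signal of 690.0 in SVEC4-10 and 4073 in MS-1. Both arrays carried it far above background, with a log2 ratio of -2.56 and an error of 0.40. Of the 10115 genes above background on both arrays, 161 had a ratio as low or lower. Bmp2, the closest relative of Bmp4, had a signal of 18.9 in SVEC4-10 and 4.73 in MS-1. The first value passed the background of 17.6 by little and the second lay below its own, so the ratio of at least 1.15-fold (log2 at least 0.20, or at least -0.34 with the poly-A scaling) is only a lower bound, and neither its size nor its direction could be settled. Bmp6, a ligand that endothelium of the liver makes to control iron, had signals of 11.8 and 8.22 in SVEC4-10 and MS-1. It was the member nearest to background from below, as Bmp2 was from above, and with the background set lower it passed in SVEC4-10. Each ligand was read by 1 probe set.

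Bmpr1a, the type I receptor, was read by 6 probe sets, of which 5 were designed from the same sequence record. Probe set 1425492_at had a signal of 929.5 in SVEC4-10 and 2.12 in MS-1. It was at least 56.5-fold higher in SVEC4-10 (log2 5.82), and this probe set stands for the gene in the counts. A further 3 probe sets, 1425494_s_at, 1425493_at and 1425491_at, had signals of 481.9, 416.8 and 331.1 in SVEC4-10 and of 1.19, 4.54 and 13.7 in MS-1. Each was at least 29.3-, 25.3- or 20.1-fold higher in SVEC4-10, in that order, so 4 of the 6 probe sets differed by at least 16-fold. Probe set 1451729_at was dimmer, at 30.2 and 5.95 in SVEC4-10 and MS-1, a ratio of at least 1.84-fold (log2 0.88), and 1445413_at, from another sequence record, was below background on both, at 0.876 and 0.730. None of the 6 was above background in MS-1.

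Bmpr2, the type II receptor, whose loss causes hereditary pulmonary arterial hypertension in people, was above background on both arrays. Its brightest probe set, 1434310_at, had a signal of 593.7 in SVEC4-10 and 263.6 in MS-1. That is 2.25-fold higher in SVEC4-10 (log2 1.17, error 0.40), just past the 2-fold mark, and 1033 of the 10115 genes above background on both arrays had a ratio as high or higher. Probe set 1419616_at, at 59.0 and 65.0 in SVEC4-10 and MS-1 (log2 -0.14), did not show this difference. Probe set 1441652_at gave 19.2 in SVEC4-10 and 2.92 in MS-1, a lower bound (log2 at least 0.22) that does not tell. Scaled to the poly-A controls, the ratio of the brightest probe set was 0.63, under 2-fold. The mean log2 ratio over its probe sets was 0.42, also under 2-fold.

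Bambi encodes a membrane protein that resembles a type I receptor but has no kinase, and so dampens BMP and TGF-beta signalling. Its single probe set had a signal of 39.5 in SVEC4-10 and 99.0 in MS-1. It was 2.51-fold higher in MS-1 (log2 -1.33), which is more than the error of 0.56 for genes of this brightness, and 631 of the 10115 genes had a ratio as low or lower. The 3 receptor-like members therefore did not share a direction, with Bmpr1a and the brightest probe set of Bmpr2 higher in SVEC4-10 and Bambi in MS-1.

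Of the extracellular regulators, Bmper, the vertebrate relative of fly crossveinless-2, which binds BMPs and can raise or lower their action, had a signal of 1093 in SVEC4-10 and 79.0 in MS-1. Both signals were above background and the log2 ratio was 3.79 with an error of 0.47. Only 57 of the 10115 genes above background on both arrays (0.564%) had a ratio as high or higher. Grem1, gremlin 1, a secreted antagonist that binds BMP2 and BMP4, had a signal of 123.7 in SVEC4-10 and 15.0 in MS-1, where it was just under background. It was at least 7.52-fold higher in SVEC4-10 (log2 2.91). Nog, noggin, another antagonist of the same ligands, had signals of 8.10 and 0.992 in SVEC4-10 and MS-1 and so was not above background on either. Each of these genes had 1 probe set, so none had a second reading.

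Tmem100 encodes a membrane protein that endothelial cells make in answer to BMP9 and BMP10 through ALK1. Its probe sets gave 3.78 and 1.54 in SVEC4-10 and 1.21 and 1.64 in MS-1. All of these lay below background, although Acvrl1 itself was above background in MS-1.

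**Figure D2:**
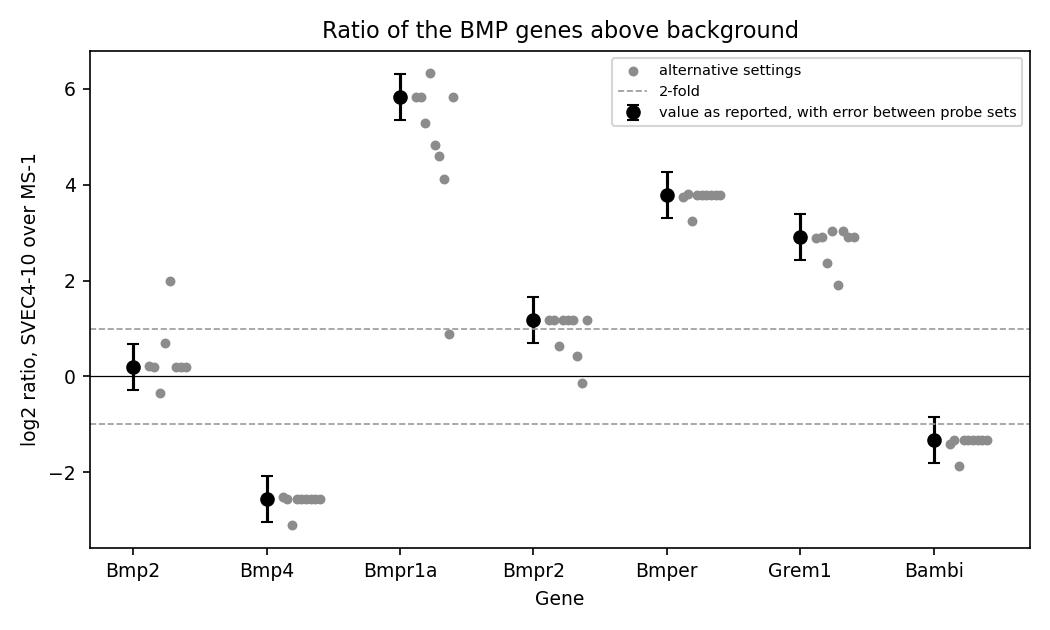
The log2 ratio of SVEC4-10 over MS-1 for the 7 BMP genes above background (black, with the error of 0.48 between probe sets of a gene) and under each alternative processing (grey), with dashed lines at 2-fold. Bmpr1a, Bmper, Grem1, Bmp4 and Bambi stayed on 1 side of 0, and Bmp2 crossed it (-0.34 with the poly-A scaling). With the probe set of smallest ratio, Bmpr1a fell to 0.88 and Bmpr2 to -0.14. Bmpr2 was also under 2-fold as the mean over probe sets (0.42) and with the poly-A scaling (0.63). The black values of Bmp2, Bmpr1a and Grem1 are lower bounds, and the error was taken from probe sets above background on both arrays.

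**Figure D3:**
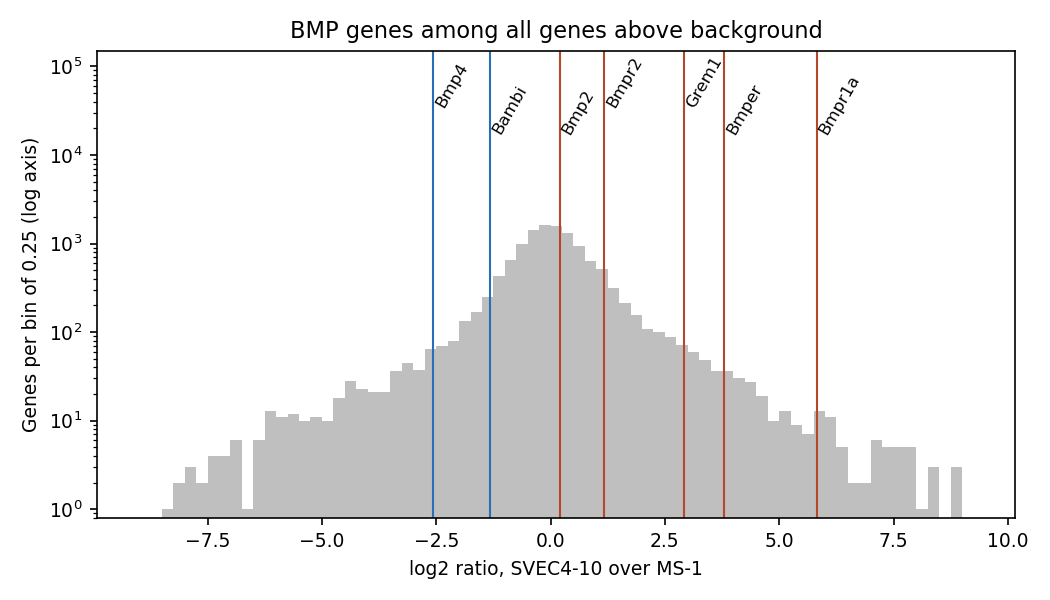
Distribution of the log2 ratio of SVEC4-10 over MS-1 for the 12553 genes above background on at least 1 array (number of genes per bin, log axis), with the BMP genes as vertical lines. Bmpr1a (5.82), Bmper (3.79) and Grem1 (2.91) lie in the right tail, Bmp4 (-2.56) in the left tail, and Bmp2 (a lower bound of 0.20) near the centre.

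A further 60 genes of the pathway were listed by role, and 55 of them had a probe set. Of the 35 above background, 8 were at least 2-fold higher in SVEC4-10 (against 15.3% of all genes), 8 in MS-1 (against 12.1%) and 19 in neither. The median of the 35 log2 ratios was 0.34. With the poly-A scaling, which shifts all genes by the same amount, it was -0.20 and the counts were 4, 12 and 19. Of the 12553 genes, 1057 were then at least 2-fold higher in SVEC4-10 and 3339 in MS-1.

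Besides Bmp4, no further ligand was well above background. Of 8 other ligand genes with a probe set, 1 was measured, Gdf2, which encodes BMP9, with signals of 21.6 and 27.1 in SVEC4-10 and MS-1 (log2 -0.33). Of the other receptors and co-receptors, 7 were measured. Of these, 0 were at least 2-fold higher in SVEC4-10 (against 15.3% of all genes), 2 in MS-1 (against 12.1%) and 5 in neither. Acvrl1 had a signal of 3.40 in SVEC4-10 and 152 in MS-1, at least 8.61-fold higher in MS-1, and at least 4.01-fold by a second probe set. Eng had 24.6 and 1326 in SVEC4-10 and MS-1, a log2 ratio of -5.75. The type I receptors Bmpr1a and Acvrl1 were thus each above background on 1 array only, and not on the same one. Of all 12553 genes, 11223 were above background in SVEC4-10, 11445 in MS-1 and 10115 on both. Acvr1, the type I receptor ALK2, had signals of 399 and 241 in SVEC4-10 and MS-1 (log2 0.73), Acvr2a, a type II receptor, had 115 and 116, and Bmpr1b was below background on both. Rgma, a BMP co-receptor, had a log2 ratio of 0.78.

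Of 10 measured antagonists and other extracellular modulators besides the members, 2 were at least 2-fold higher in SVEC4-10 (against 15.3% of all genes), 3 in MS-1 (against 12.1%) and 5 in neither. With the poly-A scaling the counts were 1, 4 and 5, against 1057 in SVEC4-10 and 3339 in MS-1 of the 12553 genes. Nbl1, a relative of Grem1, had a signal of 256 in SVEC4-10 and 5.52 in MS-1, at least 15.6-fold higher in SVEC4-10. Grem1 was also higher there, by at least 7.52-fold. Fst, follistatin, which binds activins and some BMPs, had signals of 65.6 and 3782 in SVEC4-10 and MS-1, a log2 ratio of -5.85. Crim1, a membrane-bound BMP-binding protein, was 11.7-fold higher in MS-1, and -0.97 (log2) by a second probe set.

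Of 9 SMADs and their regulators, all measured, 1 was at least 2-fold higher in SVEC4-10 (against 15.3% of all genes), 2 in MS-1 (against 12.1%) and 6 in neither. With the poly-A scaling the counts were 0, 4 and 5, against 1057 in SVEC4-10 and 3339 in MS-1 of the 12553 genes. Smad1, which BMP receptors phosphorylate, had a signal of 252 in SVEC4-10 and 1843 in MS-1 (log2 -2.87), and its other probe sets gave -2.26 and -2.65. Smurf1, a ubiquitin ligase for SMAD1, was 2.89-fold higher in MS-1, and Smad7, an inhibitory SMAD, was 2.18-fold higher in SVEC4-10 (log2 0.58 with the poly-A scaling).

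Of 8 measured target genes, 5 were at least 2-fold higher in SVEC4-10 (against 15.3% of all genes), 1 in MS-1 (against 12.1%) and 2 in neither. Their median log2 ratio was 1.08. Scaled to the poly-A controls, the counts were 3, 2 and 3, against 1057 in SVEC4-10 and 3339 in MS-1 of the 12553 genes. The median was then 0.54. Id3, which encodes an inhibitor of helix-loop-helix transcription factors, had a signal of 1190 in SVEC4-10 and 14.96 in MS-1, which was below background, and was at least 72.3-fold higher in SVEC4-10. Id2 was 6.93-fold and Id4 at least 5.22-fold higher in SVEC4-10. Id1 had signals of 916 and 449 in SVEC4-10 and MS-1 (log2 1.03, and 0.49 with the poly-A scaling). Among the other targets, Atoh8 was at least 2.19-fold higher in SVEC4-10 (log2 at least 0.59 with the poly-A scaling) and Hey1 at least 1.35-fold. Msx2 was at least 2.63-fold higher in MS-1, and Msx1 had a log2 ratio of -0.73. Bmp4 was thus lower in SVEC4-10, while Bmpr1a and all 4 Id genes were at least 2-fold higher there, except Id1 with the poly-A scaling. Smad1, Acvrl1 and Eng were lower in SVEC4-10, and so were the targets Msx1 and Msx2. A link between these genes was not tested. SMAD phosphorylation was not measured.

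**Figure D4:**
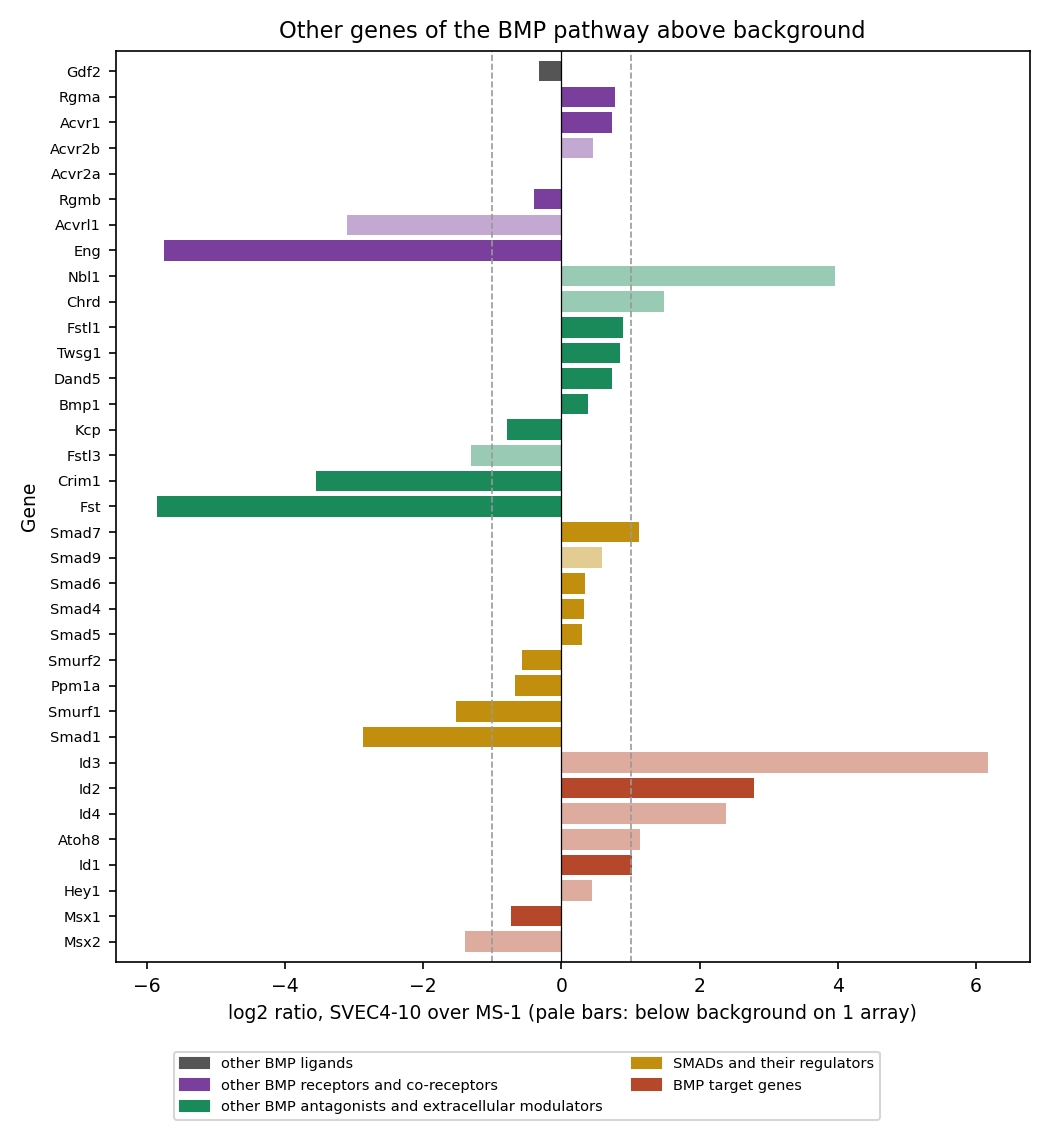
The log2 ratio of SVEC4-10 over MS-1 (bar length) for the 35 further BMP pathway genes above background, coloured by role, with pale bars where the gene was below background on 1 array and dashed lines at 2-fold. Id3 (6.18) has the longest bar towards SVEC4-10, and Fst (-5.85) and Eng (-5.75) the longest towards MS-1.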

How the data were processed

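Total RNA (Trizol) came from 1 culture per line, and biotinylated cRNA made from 6 µg of it was hybridised to 1 Affymetrix array each (per the labels' protocols). The authors deposited linear intensities, 1 per probe set. How probes were summarised is not given in the sources used here. Both deposited columns had a 2%-trimmed mean intensity of 150.001, which points to a common scaling target, and they were used unchanged. Unequal total RNA signal would move every ratio alike. The number of arrays limits the precision.

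Of 45101 probe sets, 34958 had 1 gene in the platform annotation, 932 had several and were left out, 64 were controls, and 9160 were unnamed here. Symbols were updated by gene identifier to RefSeq GRCm38.p6 (34754 matched). A gene was represented by its brightest measured probe set (mean of log2 values), outside the class that cross-hybridises where possible, and every probe set of the 10 genes is given. All 10 genes are named, and of each further pathway group the 3 with the largest absolute ratio. Acvr1, Acvr2a, Bmpr1b, Id1, Atoh8, Hey1, Msx1 and Msx2 were named after their values were seen. With 2 arrays, no likeness of pattern between genes was computed. With 1 array per line there is no test and no p-value, and the 2-fold and 4-fold marks are rules of size. The members and lists were chosen with earlier results of these data known. The steps were tested on simulated arrays. Python 3.11.15, pandas 2.3.3 and numpy 2.4.6 were used.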

Additional observations from a re-analysis of the deposited data

How the results depend on the processing

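Of 61 recomputed ratios of the 7 measured genes, 44 moved by less than the error of 0.48, 16 moved by more, and 1 gene past 2-fold changed sign: Bmpr2 had -0.14 by its probe set with the smallest ratio, which is another probe set. Bmp2, a lower bound of 0.20 as reported, had a bound of -0.34 with the poly-A scaling and of 0.70 with the background at the 40th percentile of the array, and a ratio of 2.00 with no floor. The ratio of Bmp4 ranged from -3.10 to -2.52, Bmper from 3.25 to 3.80, Grem1 from 1.91 to 3.04, Bambi from -1.87 to -1.32 and Bmpr1a from 0.88 to 6.32. The median over the measured genes, 1.17 as reported, was 0.63 scaled to the poly-A controls and 1.82 with no background floor. It was 0.42 as the mean over probe sets and 0.20 with the probe set of smallest ratio. With only the probe sets whose names have no class letter before the final "at", it was 0.69. That setting left out Grem1, whose probe set is 1425357_a_at. At least 2-fold higher in SVEC4-10 were 4 of the genes here and 1920 of all genes measured. With no background floor, where values below background enter, these counts were 7 and 3674. With the probe set of smallest ratio they were 2 and 1390. The counts were 3 and 1057 with the poly-A scaling, and 3 and 1743 with the mean over probe sets. With only the probe sets without a class letter they were 3 and 1683. The count over all genes thus moved with the setting too. At a 4-fold threshold 1 gene was called higher in MS-1 (539 of all genes), against 2 genes at 2-fold (1519 of all genes). With the background doubled, Bmp2 was no longer measured, and with it at the 40th percentile Bmp6 was measured too, which made 8 genes. With no floor every gene counts as measured, so that count has no value there. No replicate could be left out, and no paired analysis was possible because each line has 1 array.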
